A study of Mus musculus with 6 samples.

Results

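The genes described here are the ion channel subunits for potassium, calcium and sodium in a mouse model of B-cell acute lymphoblastic leukemia, set beside normal pro-B cells. Members were every gene of the deposited count table whose symbol starts with Kcn, Cacna, Cacnb or Cacng, or with Scn followed by a digit and a or b, and whose counts over the 6 libraries summed to 10 or more. Of 134 such channel genes 76 met that minimum, of 33924 genes in the table and 17936 with the same minimum. The other 58 channel genes lay below it, and 29 of them had no read in any library. Just inside the minimum were Kcnd3 with 10 summed counts and Kcnh3, Kcnj13, Kcnk4 and Kcnq1 with 11 each. Just outside were Cacng6 with 9 and Cacna1g, Kcne1, Kcnj1 and Kcnj5 with 8 each. The minimum is on a sum over all groups and uses no difference between them.

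Total RNA was sequenced in 3 groups of 2 libraries. The groups leukemia 92 and leukemia 1 hold primary leukemia cells with the genotype Mll-Af4/ N-RasG12D, labelled as bone marrow, and the third group holds wildtype pro-B cells sorted from marrow as B220+ CD43+ IgM-. For the leukemias, marrow cells positive for c-Kit and Sca1, from Mll-Af4 mice aged 6 to 8 weeks, were first given a retrovirus with Cre and TdTomato, and then a retrovirus carrying N-RasG12D, so that the mutant Ras is expressed from a viral vector and not from its own locus. The labels also give a cytokine concentration of 20 ng per uL for the leukemias and no value for the pro-B cells. Recipients were irradiated with 900 rads and received 250000 transduced cells together with 200000 wild-type marrow cells, so that recipients also carried normal marrow cells. The labels do not say whether leukemia cells were sorted before RNA extraction and give no age for the pro-B donors. No Mll-Af4 leukemia with an empty vector was analysed here. Each leukemia number is taken as 1 primary leukemia, and the labels do not say whether its 2 libraries, or those of the pro-B cells, come from separate animals. Where a leukemia is compared singly, a p-value then measures only the spread between libraries, which may be technical. Where both leukemias are set against pro-B cells, it measures the spread between the 2 leukemias and between the 2 pro-B libraries.

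Voltage-gated channels open when the membrane potential changes and pass potassium, calcium or sodium through a pore-forming alpha subunit, while auxiliary subunits set how much of the channel reaches the membrane and how it opens. In lymphocytes, which do not fire action potentials, potassium channels such as Kcna3 and the calcium-activated Kcnn4 keep the membrane negative and so maintain the driving force for calcium entry through store-operated Orai channels. Tandem-pore potassium channels (Kcnk) carry background currents, inward rectifiers (Kcnj) hold the resting potential, and many voltage-gated calcium and sodium channel genes are best known from neurons and muscle.

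Each library held 22153444 to 27444759 counts in genes, and 3 counts in 1 library equalled 0.107 to 0.138 CPM (counts per 1000000 of the normalised library size). Of the 76 members, 62 to 72 had a read in a given library. Replicates differed with an SD of log2 differences of 0.25 in leukemia 92, 1.04 in leukemia 1 and 0.25 in pro-B cells over all tested genes. Replicate 2 of leukemia 1 stood apart from the other leukemia libraries. Its 14 granulocyte and monocyte markers summed to 15900 CPM, against 347 CPM in replicate 1 of leukemia 1, 2089 and 1654 CPM in leukemia 92 and 442 and 464 CPM in pro-B cells. The 4 Y-linked genes Ddx3y, Eif2s3y, Kdm5d and Uty summed to 43.2 CPM in this library, to 4.92 CPM in replicate 1 of leukemia 1, to 0 and 0.277 CPM in leukemia 92 and to 0 CPM in both pro-B libraries. The 11 pro-B markers summed to 3978 to 5436 CPM over the leukemia libraries and to 5177 and 4227 CPM in pro-B cells, but single markers differed widely. Dntt, which adds bases at antibody gene joins, had 0.0411 and 0 CPM in leukemia 92 and 0.244 and 1.07 CPM in leukemia 1, against 995 and 614 CPM in pro-B cells. Rag2 was also lower and Cd79a higher in leukemia (log2 changes -3.39 and 1.60, adjusted p = 0.0421 and 0.0159, edgeR), and Rag1 averaged 30.9 CPM over the leukemia libraries, against 347 CPM in pro-B cells (adjusted p = 0.0557, edgeR). In bulk RNA, fewer cells of a type and less RNA per cell cannot be told apart.

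The promoters of 3 members are shown: that of Cacna2d1, whose transcript had the largest fall among the called members, and those of Kcnk10 and Kcnk12, which were both higher in leukemia. Sequences are from RefSeq on GRCm38.p6 and run from 250 bases before to 50 bases after the annotated start, 300 bases in all. The authors' own build, mm9, differs, and no position in it is given. Windows were matched for 57 of the 76 members and for 13 of the 15 members called below. Capitals mark matches on either strand to the GC-box GGGCGGG in Cacna2d1 (chr5:15934441-15934740, plus strand) and to the E-box CAGGTG in Kcnk12 (chr17:87797945-87798244, minus strand). The first Kcnk10 window (chr12:98575078-98575377, minus strand) and the second (chr12:98578164-98578463, minus strand) belong to 2 annotated starts.
Cacna2d1: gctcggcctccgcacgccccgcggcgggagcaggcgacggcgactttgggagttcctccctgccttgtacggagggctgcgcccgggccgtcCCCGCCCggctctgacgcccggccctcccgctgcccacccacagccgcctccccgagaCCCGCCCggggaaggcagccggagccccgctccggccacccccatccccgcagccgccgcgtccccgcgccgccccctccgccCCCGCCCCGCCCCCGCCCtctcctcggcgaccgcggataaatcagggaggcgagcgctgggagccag
Kcnk10, first start: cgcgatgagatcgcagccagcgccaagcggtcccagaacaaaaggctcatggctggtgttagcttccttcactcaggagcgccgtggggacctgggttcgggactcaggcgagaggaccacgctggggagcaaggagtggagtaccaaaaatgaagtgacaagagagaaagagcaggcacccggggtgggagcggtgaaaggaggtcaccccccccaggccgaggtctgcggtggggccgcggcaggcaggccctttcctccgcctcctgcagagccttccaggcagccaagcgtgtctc
Kcnk10, second start: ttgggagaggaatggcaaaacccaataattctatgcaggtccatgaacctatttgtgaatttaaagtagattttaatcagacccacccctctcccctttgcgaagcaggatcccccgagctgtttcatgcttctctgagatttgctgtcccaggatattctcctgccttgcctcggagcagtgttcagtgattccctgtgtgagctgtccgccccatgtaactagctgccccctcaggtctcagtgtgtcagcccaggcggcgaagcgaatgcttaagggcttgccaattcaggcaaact
Kcnk12: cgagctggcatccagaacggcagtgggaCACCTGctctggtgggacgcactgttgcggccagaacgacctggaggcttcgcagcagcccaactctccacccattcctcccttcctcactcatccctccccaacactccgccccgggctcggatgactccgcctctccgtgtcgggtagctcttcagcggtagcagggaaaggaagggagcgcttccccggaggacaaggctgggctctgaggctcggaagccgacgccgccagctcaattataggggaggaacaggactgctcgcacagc
The Cacna2d1 window held 42 CpG dinucleotides, the Kcnk12 window 20 and the Kcnk10 windows 18 and 7, where the median over 32851 promoters of this length was 7. A GC-box was in 25.6% of all those promoters and an E-box in 20.2%. Neither Kcnk10 window held a GC-box, an E-box or any of the other motifs searched, which were ETS (CCGGAAGT, in 3.89% of promoters), AP-1 (TGANTCA, 7.81%), the EBF motif (0.904%) and CRE (TGACGTCA, 1.79%). A match is a stretch of letters in this window and is not a measured site.

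In leukemia against pro-B cells, 3 tandem-pore potassium channels and 2 calcium channel pores were higher in leukemia, together with the voltage-gated subunit Kcng3. The calcium channel auxiliary subunits Cacna2d1 and Cacnb1, the calcium channel pores Cacna1e and Cacna1i, the sodium channel pore Scn3a and the potassium channel genes Kcnh8, Kcnc1, Kcnip2 and Kcnn4 were lower. Cacna2d1 fell to 0.0410 ± 0.0481 CPM in leukemia (SD, n = 4 libraries), against 58.9 ± 11.8 CPM in pro-B cells (SD, n = 2). Kcnk6 averaged 35.1 ± 3.97 CPM over the leukemia libraries, against 8.82 ± 0.0415 CPM for pro-B cells, and Kcnk10 averaged 25.7 ± 5.74 CPM over the leukemia libraries, against 3.21 ± 0.451 CPM for pro-B cells. Summed over the 76 members, channel reads made up 335.8 and 319.2 CPM in leukemia 92 and 301 and 340.7 CPM in leukemia 1, against 544.7 and 515.5 CPM in pro-B cells. Most of that gap lay in Cacna2d1, Cacna1e and Scn4b, the last of which was not called. Without these 3 genes the sums were 298.1 and 288.1 CPM in leukemia 92 and 274.4 and 309.2 CPM in leukemia 1, against 317 and 316.9 CPM in pro-B cells.

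This comparison summed the counts of the 2 libraries of each leukemia, so that 2 leukemias were set against 2 pro-B libraries, and used edgeR's quasi-likelihood test with Benjamini-Hochberg adjustment over 15280 genes at an adjusted p under 0.05. Of the 76 members, 51 were tested and 25 had too few counts. Of those tested, 6 were higher (11.8%, where 9.54% of all tested genes were higher), 9 were lower (17.6%, against 10.7% of all tested genes) and 36 did not pass. In either direction 15 of 51 were called (29.4%), against 20.2% of all genes. With a further requirement of a 4-fold change, 12 members were called, where 11.5% of all genes were. The median log2 change of the tested members was -0.47, against 0.02 over all tested genes. Genes with an empty group lie far from this median, so setting them to their bound could not move it. These shares describe the members, and members that passed the count filter through 1 group alone are among them. In all 15 called members the leukemia libraries lie on one side of both pro-B libraries. A fit without 1 pro-B library could therefore not turn their sign. Such a fit leaves 1 pro-B library and no spread within that group, so it cannot decide a call. Every call in this comparison therefore needs both pro-B libraries. With DESeq2, 6 of the 51 members were higher and 16 lower, where 4769 of 15280 genes were called in either direction, against 3089 with edgeR. DESeq2 did not call Cacna1s and Kcng3. It called 9 others, Cacna1b and Kcnj12 as higher and Cacna1h, Cacna2d2, Kcnk5, Kcnq5, Scn2b, Scn4a and Scn4b as lower.

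A count over all members needs no filter. In 14 of the 76 members (18.4%) all 4 leukemia libraries lay above both pro-B libraries, against 20.6% of the 17936 genes with 10 or more summed counts. In 23 (30.3%) all 4 lay below, against 26.5% of those genes. In the remaining 39 the groups overlapped.

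**Figure D1:**
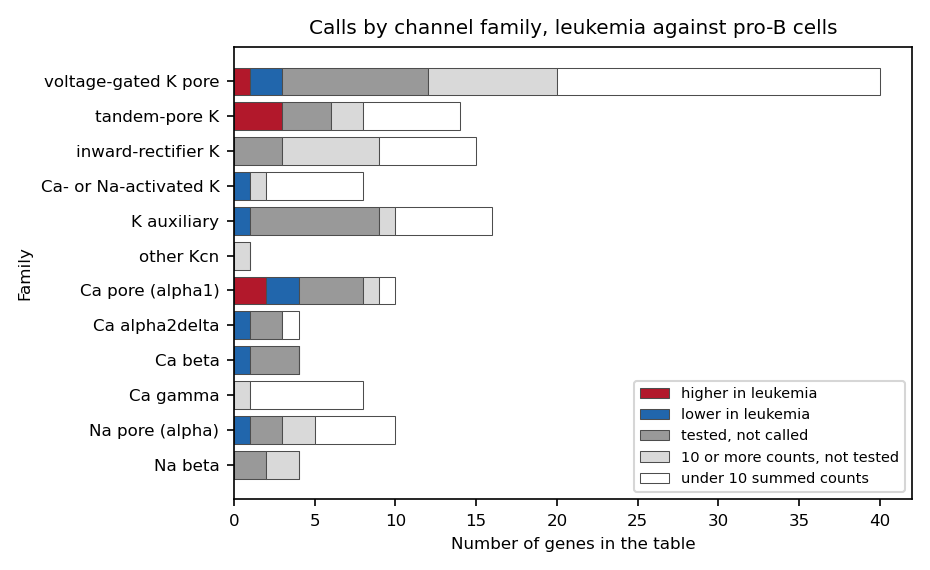
Number of channel genes of the table in each family, divided by outcome in leukemia against pro-B cells (adjusted p under 0.05, edgeR). Red marks genes higher in leukemia, blue lower, dark grey tested without a call, light grey 10 or more summed counts but not tested, and white under 10 summed counts; the tandem-pore family holds 3 of the 6 genes that were higher.

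By family, 3 of 6 tested tandem-pore potassium channels were higher and none was lower with edgeR, where DESeq2 called Kcnk5 lower, of 14 in the table and 8 with enough counts to be members. Of 12 tested voltage-gated potassium channel pores, 1 was higher and 2 were lower, of 40 in the table and 20 members. The 3 tested inward rectifiers gave no call, of 9 members, and 1 of the 9 tested potassium channel auxiliary subunits was lower, of 10 members. Among calcium channels, 2 of 8 tested pores were higher and 2 lower, 1 of 3 tested alpha2delta subunits and 1 of 4 tested beta subunits were lower, and the single gamma member, Cacng8, was not tested here. Among sodium channels, 1 of 3 tested pores was lower and neither of the 2 tested beta subunits passed with edgeR. Kcnn4, which was lower, was the tested one of 2 calcium-activated potassium channel members, and Kcnrg, which belongs to no pore family, was not tested. The 25 untested members had at most 1.36 CPM in any library, the level of Cacng8 in replicate 1 of leukemia 92. Of the tested members without a call, 11 are given here by name alone (Cacna1a, Cacnb2, Kcnab1, Kcnab3, Kcnf1, Kcnip3, Kcnip4, Kcnj10, Kcnmb1, Kcnmb4 and Scn11a), with log2 changes between -1.38 (Kcnf1) and 0.79 (Kcnab1). The bar chart of families shows these outcomes.

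**Figure D2:**
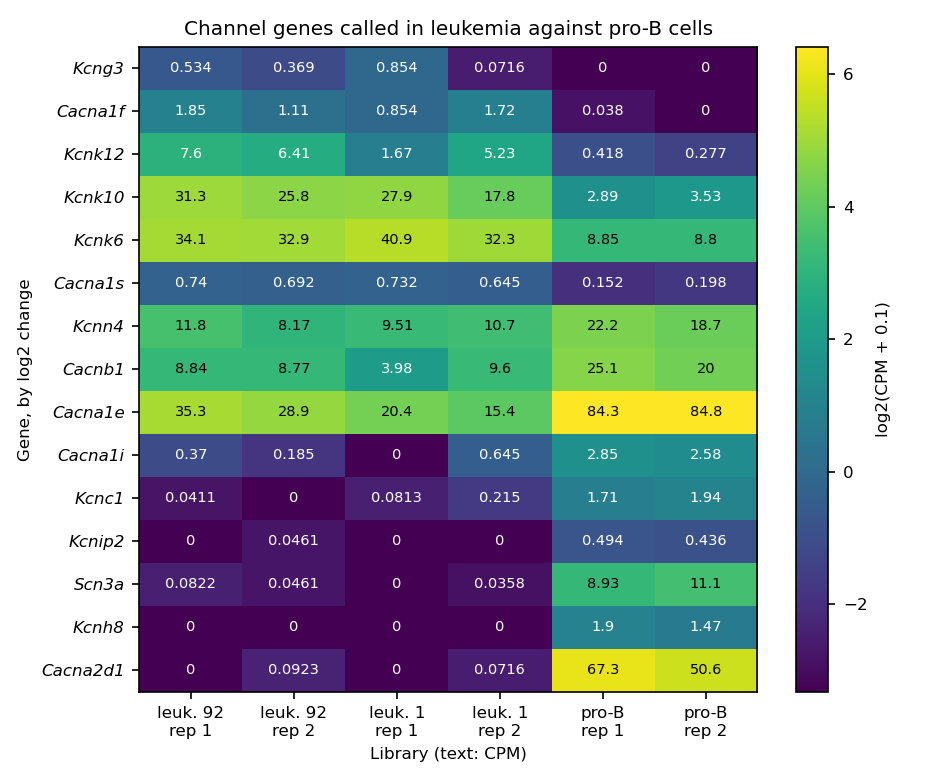
CPM of the 15 channel genes called in leukemia against pro-B cells, one column per library (leuk. 92, leuk. 1, pro-B; rep, replicate), ordered by log2 change from highest to lowest. Colour is log2(CPM + 0.1) and each cell prints its CPM; in all 15 rows the 4 leukemia libraries lie on one side of both pro-B libraries.

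The tandem-pore potassium channels were the family with the most rises. Kcnk6, a background potassium channel found in vascular smooth muscle and immune cells, had 34.1 and 32.9 CPM in leukemia 92 and 40.9 and 32.3 CPM in leukemia 1, against 8.85 and 8.80 CPM in pro-B cells. Every leukemia library was well above both pro-B libraries, and the 2 leukemias overlapped each other. The log2 change was 2.04 ± 0.15 (SE, adjusted p = 0.0111, edgeR). Kcnk10, which is opened by membrane stretch and by polyunsaturated lipids and whose promoters are printed above, had 31.3 and 25.8 CPM in leukemia 92 and 27.9 and 17.8 CPM in leukemia 1, against 2.89 and 3.53 CPM in pro-B cells. Its groups did not overlap, and its log2 change was 3.05 ± 0.27 (SE, adjusted p = 0.0139, edgeR). Kcnk12, a family member that carries little current on its own, had 7.60 and 6.41 CPM in leukemia 92 and 1.67 and 5.23 CPM in leukemia 1, against 0.418 and 0.277 CPM in pro-B cells. All 4 leukemia libraries were above the pro-B libraries, with replicate 1 of leukemia 1 the lowest of them. Its log2 change was 3.98 ± 0.59 (SE, adjusted p = 0.0255, edgeR), and the adjusted p was 0.072 without replicate 2 of leukemia 1. Kcnk6 and Kcnk10 kept their calls without any single leukemia library.

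Kcnk5, a tandem-pore channel that is sensitive to extracellular pH, lay the other way. It had 0.247 and 0.138 CPM in leukemia 92 and 1.83 and 0.358 CPM in leukemia 1, against 7.83 and 7.17 CPM in pro-B cells. All 4 leukemia libraries were below the pro-B libraries, but replicate 1 of leukemia 1 was above the other 3, and the log2 change of -3.54 ± 0.87 (SE) did not pass (adjusted p = 0.0629, edgeR). Kcnk13 had 1.40 and 1.43 CPM in leukemia 92 and 0.325 and 1.36 CPM in leukemia 1, against 0.912 and 1.11 CPM in pro-B cells. It overlapped between groups, as did Kcnk7, and neither was called. Kcnk3 and Kcnk4 were not tested.

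Among the calcium channel genes, the largest difference was in the alpha2delta subunit Cacna2d1, an extracellular auxiliary subunit that brings calcium channel pores to the surface and is the target of gabapentin. It had 0 and 2 counts in leukemia 92 and 0 and 2 counts in leukemia 1, against 1771 and 1276 counts in pro-B cells. In CPM these are 0 and 0.0923 in leukemia 92 and 0 and 0.0716 in leukemia 1, against 67.3 and 50.6 in pro-B cells. No leukemia library held 3 counts or more. The log2 change was -10.34 ± 0.33 (SE, adjusted p = 0.00648, edgeR), and -10.93 without replicate 2 of leukemia 92. This SE is derived from the F statistic and understates the uncertainty from so few leukemia reads. In a fit of all 6 libraries with 1 coefficient per group, the SE was 0.87 for each leukemia against pro-B cells. The exact intervals of the ratios are also wider. Over leukemia 92 alone the ratio of pro-B to leukemia was 1360, with a 95% exact interval of 376 to 11200, and over leukemia 1 it was 1550, with an interval of 429 to 12800. Cacna2d2, a second alpha2delta subunit, had no read in leukemia 92 and 0.163 and 0.0716 CPM in leukemia 1, against 1.22 and 0.990 CPM in pro-B cells, and did not pass in the combined comparison (adjusted p = 0.0724, edgeR). Cacna2d4, which is best known from retinal photoreceptors, had 8.26 and 8.77 CPM in leukemia 92 and 2.11 and 5.05 CPM in leukemia 1, against 13.8 and 12.0 CPM in pro-B cells. All 4 leukemia libraries lay below both pro-B libraries, and the gene did not pass (log2 change -1.01, adjusted p = 0.223, edgeR).

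Calcium channel pores moved in both directions. Cacna1e, the R-type pore, had 35.3 and 28.9 CPM in leukemia 92 and 20.4 and 15.4 CPM in leukemia 1, against 84.3 and 84.8 CPM in pro-B cells. The 3 groups did not overlap, with leukemia 1 the lowest, and the log2 change was -1.69 ± 0.35 (SE, adjusted p = 0.0451, edgeR). This call was lost without replicate 1 of leukemia 1 (adjusted p = 0.069) and without replicate 2 of leukemia 92 (0.059). Cacna1i, a T-type pore that opens at low voltage, had 0.370 and 0.185 CPM in leukemia 92 and 0 and 0.645 CPM in leukemia 1, against 2.85 and 2.58 CPM in pro-B cells. Its log2 change was -3.05 ± 0.37 (SE, adjusted p = 0.0185, edgeR). Without replicate 1 of leukemia 1 it was -2.48 (adjusted p = 0.066), and without replicate 2 it was -3.97 (0.093). Cacna1h, another T-type pore, had no read in leukemia 92 and 0 and 0.287 CPM in leukemia 1, against 1.48 and 1.62 CPM in pro-B cells. Leukemia 92 was at least 23.8-fold lower than pro-B cells against a floor of 3 counts over the group, and the combined comparison did not pass (adjusted p = 0.0782, edgeR).

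Both calcium channel pores that were higher belong to the L-type family and had low counts. Cacna1f, the L-type pore of the retina, had 1.85 and 1.11 CPM in leukemia 92 and 0.854 and 1.72 CPM in leukemia 1, against 0.0380 and 0 CPM in pro-B cells. With 138 reads in leukemia and 1 in pro-B cells, the ratio was 72.2, with a 95% exact interval of 12.7 to 2870, and the adjusted p was 0.0219 (edgeR). Each leukemia library held 21 or more reads, so that the groups were clearly apart. Cacna1s, the L-type pore of skeletal muscle, had 0.740 and 0.692 CPM in leukemia 92 and 0.732 and 0.645 CPM in leukemia 1, against 0.152 and 0.198 CPM in pro-B cells. Each leukemia library held 15 or 18 reads and the pro-B libraries 4 and 5. The log2 change was 2.04 ± 0.42 (SE, adjusted p = 0.0433, edgeR), and the adjusted p was 0.059 without replicate 1 of leukemia 1 and 0.18 with DESeq2.

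The beta subunits bind the pore inside the cell and promote its transport to the membrane. Cacnb1, known from skeletal muscle, had 8.84 and 8.77 CPM in leukemia 92 and 3.98 and 9.60 CPM in leukemia 1, against 25.1 and 20.0 CPM in pro-B cells. All leukemia libraries were below both pro-B libraries, and replicate 1 of leukemia 1 was the lowest. The log2 change was -1.46 ± 0.26 (SE, adjusted p = 0.0336, edgeR), and the adjusted p was 0.091 without replicate 2 of leukemia 1. In RefSeq on GRCm38.p6 the span of this gene overlaps that of Rpl19, an abundant ribosomal protein gene. Exons were not compared, and the strand setting of the counts is not given. Whether reads of Rpl19 entered this count was not tested. Cacnb3, the beta subunit studied most in T cells, had 0.0822 and 0.138 CPM in leukemia 92 and 0.244 and 1.5 CPM in leukemia 1, against 0.912 and 1.35 CPM in pro-B cells. Replicate 2 of leukemia 1 lay above both pro-B libraries while the other 3 leukemia libraries lay below, and the gene was not called. Cacnb2 and Cacnb4 overlapped between leukemia and pro-B cells. Of the other called members, Cacna1e, Cacna1i, Cacna2d1, Kcnk10 and Scn3a overlap annotated non-coding RNA genes, for which the same holds. Cacna1h, Cacna2d4, Kcnab2 and Kcnk7, which were not called, overlap the coding genes Tpsg1, Lrtm2, Nphp4 and Ehbp1l1 in that order.

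Of the 12 tested voltage-gated potassium channel pores, 3 were called (25%, against 20.2% of all genes). Kcnh8, a pore of the ether-a-go-go-like family, had no read in any of the 4 leukemia libraries, against 50 and 37 counts (1.90 and 1.47 CPM) in pro-B cells. It was at least 55.4-fold lower in leukemia against a floor of 3 counts over the group (adjusted p = 0.0187, edgeR). Kcnc1, a fast pore known from fast-spiking neurons, had 0.0411 and 0 CPM in leukemia 92 and 0.0813 and 0.215 CPM in leukemia 1, against 1.71 and 1.94 CPM in pro-B cells. Its groups did not overlap, and its log2 change was -4.26 ± 0.82 (SE, adjusted p = 0.0400, edgeR), with -5.20 without replicate 2 of leukemia 1 and an adjusted p of 0.081 without replicate 1. Kcnip2, a calcium-binding auxiliary subunit of the Kcnd pores, had 1 read in all leukemia libraries together and 13 and 11 reads in pro-B cells. The ratio of pro-B to leukemia was 45.9, with a 95% exact interval of 7.48 to 1890 (adjusted p = 0.0327, edgeR).

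Kcng3 was the voltage-gated subunit that was higher. It forms no current alone and modifies other potassium channel pores. It had 13 and 8 reads in leukemia 92 and 21 and 2 reads in leukemia 1, against none in pro-B cells, and was at least 7.68-fold higher in leukemia against a floor of 3 counts over the group (adjusted p = 0.0322, edgeR). Replicate 2 of leukemia 1 was at 0.0716 CPM, below the level of 3 counts. The gene had too few counts to be tested without replicate 1 of either leukemia, and its adjusted p was 0.064 with DESeq2.

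Of the channels best known from lymphocytes, Kcnn4 was lower in leukemia, and Kcna3 and Kcnab2 gave no call. Kcnn4, the calcium-activated potassium channel, had 11.8 and 8.17 CPM in leukemia 92 and 9.51 and 10.7 CPM in leukemia 1, against 22.2 and 18.7 CPM in pro-B cells. All leukemia libraries were below both pro-B libraries, and the log2 change was -0.96 ± 0.20 (SE, adjusted p = 0.0427, edgeR). The adjusted p lay above the threshold without replicate 1 of leukemia 1 (0.064), without replicate 2 of leukemia 1 (0.057) and without replicate 2 of leukemia 92 (0.066). Kcna3, the main voltage-gated potassium channel of lymphocytes, had 12.5 and 11.9 CPM in leukemia 92 and 22.1 and 4.87 CPM in leukemia 1, against 16.1 and 19.9 CPM in pro-B cells. The 2 libraries of leukemia 1 enclosed all the others, and the gene was not called (log2 change -0.47 ± 0.21 SE, adjusted p = 0.187, edgeR). Kcnab2, the cytoplasmic beta subunit of Kcna channels, had 105 and 109 CPM in leukemia 92 and 70.9 and 125 CPM in leukemia 1, against 94.1 and 103 CPM in pro-B cells. Its groups overlapped (log2 change 0.12 ± 0.13 SE, adjusted p = 0.544, edgeR). Kcnh2, a pore studied in human leukemia cells, had 1 read in each leukemia and 4 and 7 reads in pro-B cells. It was not tested, and the ratio of pro-B to leukemia was 10.5, with a 95% exact interval of 2.29 to 97.6.

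No inward rectifier was called by edgeR in the combined comparison, where Kcnj2 and Kcnj12 had an unadjusted p of 0.0391 and 0.0254 and DESeq2 called Kcnj12. Kcnj2, the classical inward rectifier of muscle and heart, had 1.44 and 1.29 CPM in leukemia 92 and 0.691 and 4.55 CPM in leukemia 1, against 4.90 and 6.10 CPM in pro-B cells. The leukemia libraries lay below the pro-B libraries, with replicate 2 of leukemia 1 close to them, and the gene did not pass (log2 change -1.37, adjusted p = 0.111, edgeR). Kcnj12, a close relative, had 26 and 21 reads in leukemia 92 and 8 and 7 reads in leukemia 1, against none in pro-B cells. It was at least 10.8-fold higher in leukemia and did not pass in the combined comparison (adjusted p = 0.0855, edgeR). Kcnj8, a pore of ATP-sensitive potassium channels, had no read in leukemia, against 9 and 6 reads in pro-B cells, and was at least 9.55-fold lower. It had too few counts to be tested. The other 6 inward rectifier members did not exceed 1.93 CPM in any library.

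Of the sodium channel genes, Scn3a was called in the combined comparison. Scn3a, a pore of the developing nervous system, had 2 and 1 reads in leukemia 92 and 0 and 1 reads in leukemia 1, against 235 and 281 reads (8.93 and 11.1 CPM) in pro-B cells. The groups were far apart, and the log2 change was -7.76 ± 0.66 (SE, adjusted p = 0.0135, edgeR). Scn4b, a beta subunit that modulates the opening of sodium channel pores, had 2.43 and 2.08 CPM in leukemia 92 and 6.22 and 15.9 CPM in leukemia 1, against 76.1 and 63.3 CPM in pro-B cells. The 3 groups did not overlap, and the combined log2 change of -3.31 ± 0.83 (SE) did not pass (adjusted p = 0.0645, edgeR). Scn2b, another beta subunit, had 0.329 and 0.0461 CPM in leukemia 92 and 0.122 and 2.65 CPM in leukemia 1, against 11.3 and 9.83 CPM in pro-B cells (adjusted p = 0.0803, edgeR). In Scn4b and Scn2b the highest leukemia library was replicate 2 of leukemia 1. Scn4a, the pore of skeletal muscle, had 1.85 and 1.34 CPM in leukemia 92 and 3.78 and 3.90 CPM in leukemia 1, against 9.54 and 7.53 CPM in pro-B cells, and did not pass (adjusted p = 0.104, edgeR).

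Markers of other cell types moved with these groups. The 8 plasmacytoid dendritic cell markers summed to 1561 and 1426 CPM in leukemia 92 and 1661 and 1047 CPM in leukemia 1, against 4179 and 4666 CPM in pro-B cells. The defining marker Siglech had 33.9 and 32.0 CPM in leukemia 92 and 23.5 and 14.5 CPM in leukemia 1, against 1404 and 1569 CPM in pro-B cells. The 13 T and NK cell markers summed to 10.1 and 7.15 CPM in leukemia 92 and 6.26 and 60.6 CPM in leukemia 1, against 474 and 447 CPM in pro-B cells, and the 10 erythroid and platelet markers to 2.03 to 8.52 CPM over the leukemia libraries, against 53.5 and 126 CPM in pro-B cells. The sums of these lists lay on the same side as the lower channel genes. Called lower were 4 of 8 tested plasmacytoid dendritic markers, 5 of 13 T and NK markers and 4 of 7 erythroid and platelet markers (edgeR). None was higher. Cox6a2, Pf4, Itga2b and Gp9 overlapped between groups. Cd3d, Cd3e, Cd3g and Trac in replicate 2 of leukemia 1 lay above both pro-B libraries. Hbb-b1 alone had 37.5 and 83.4 CPM in pro-B cells. The monocyte markers Csf1r, Fcgr3 and Cd14 lay on the side of the higher channel genes. Csf1r had 463 and 430 CPM in leukemia 92 and 138 and 206 CPM in leukemia 1, against 3.65 and 5.35 CPM in pro-B cells (log2 change 6.18, adjusted p = 0.0171, edgeR). Of the 14 granulocyte and monocyte markers, Csf1r and Fcgr3 were higher, none was lower, and the median log2 change was 3.52. Set against pro-B cells singly, leukemia 92 had a median of 0.78 and leukemia 1 of 4.25. The list summed to 15900 CPM in replicate 2 of leukemia 1. In replicate 1 it summed to 347 CPM, below the 442 and 464 CPM of pro-B cells. Cd14 had 714 and 685 CPM in leukemia 92 and 8.38 and 46.0 CPM in leukemia 1, against 1.94 and 2.85 CPM in pro-B cells, without passing (adjusted p = 0.0716, edgeR). The part of these markers in the results was not tested. The 7 neuron markers of the table summed to 0.645 to 2.89 CPM over the leukemia libraries, against 0.494 and 0.832 CPM in pro-B cells. The 10 stromal and endothelial markers summed to 323 to 572 CPM over the leukemia libraries, against 211 and 214 CPM in pro-B cells, mostly from Pecam1. Without Pecam1 the other 9 summed to 18.5 and 16.3 CPM in leukemia 92 and 4.11 and 16.9 CPM in leukemia 1, against 38.8 and 44.8 CPM in pro-B cells, and the endothelial genes Cdh5 and Kdr were lower in leukemia (log2 changes -4.01 and -4.53, adjusted p = 0.00742 and 0.0137, edgeR).

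Each leukemia was then set against pro-B cells in a fit of all 6 libraries with 1 coefficient per group. All groups shared 1 estimate of the spread, so the wide replicate spread of leukemia 1 also enters the p-values of leukemia 92. Both comparisons use the same pro-B libraries, so their values stand side by side and their overlap is not a result. In leukemia 92, 11 of 53 tested members were higher (20.8%, against 14.7% of 14979 genes) and 12 were lower (22.6%, against 16.7%), so that 23 were called in all (43.4%, against 31.4%) and 18 of them with a 4-fold change (against 15% of all genes). In leukemia 1, 10 of 53 were higher (18.9%, against 9.55%) and 11 were lower (20.8%, against 10.7%), so that 21 were called in all (39.6%, against 20.3%) and 19 of them with a 4-fold change (against 9.98%). Of the members not called in the combined comparison, Kcnd1, Kcne3, Scn3b and Cacng8 were higher in leukemia 92, Kcna5, Cacna1b, Kcnh4 and Cacnb2 were higher in leukemia 1, and Kcnj12 was higher in each. Kcnk5, Kcnq5 and Scn4a were lower in leukemia 92, Cacna1d and Cacnb4 were lower in leukemia 1, and Scn4b and Cacna2d2 were lower in each. Kcng1 was higher in leukemia 92 and lower in leukemia 1. Of the 15 members called in the combined comparison, Cacna1i (adjusted p = 0.131 in leukemia 92 and 0.175 in leukemia 1, edgeR), Cacnb1 (0.0883 and 0.0662) and Kcng3 (0.0985 and 0.119) passed in neither leukemia, and Kcnn4 did not pass in leukemia 1 (0.0560). The members named here that fall outside the naming rule were chosen after their values were seen. Without 1 library of leukemia 92 the first comparison called 2 members higher and 1 lower (Kcnk6, Kcnk10 and Cacna2d1), and without 1 pro-B library 0 or 1 in each direction, with 23 members at an unadjusted p under 0.05. Without 1 library of leukemia 1 the first comparison called more members and more genes of the table. The second comparison called fewer members and fewer genes without 1 library of leukemia 92 or of pro-B cells. It called more of both without 1 library of leukemia 1. Each of these fits, in both comparisons, leaves 1 library in a group and no spread within it, so it cannot decide a call.

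**Figure D3:**
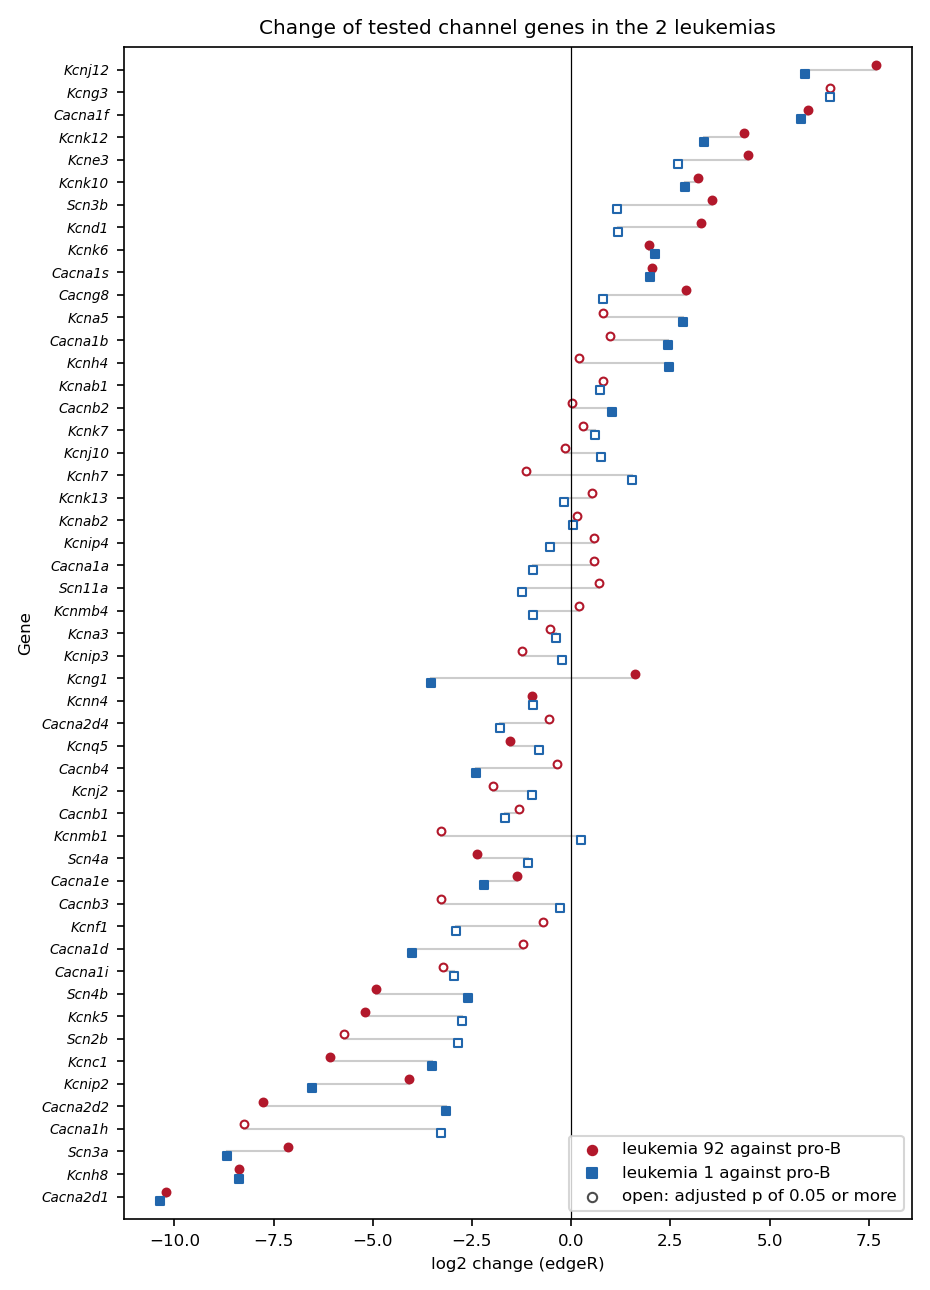
Log2 change of 51 of the 53 channel genes tested in the fit of 6 libraries, for leukemia 92 (red circles) and leukemia 1 (blue squares), each against pro-B cells; filled symbols have an adjusted p under 0.05 (edgeR) and a grey line joins the pair. Both sets of changes share the same 2 pro-B libraries; Kcng1 is the gene called on both sides of 0, at 1.62 in leukemia 92 and -3.53 in leukemia 1.

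The direct comparison of leukemia 92 with leukemia 1 called 2 members, both higher in leukemia 92 (3.77% of 53 tested, against 1.82% of all genes), and 0 lower (against 1.27%) with edgeR's quasi-likelihood test. In either direction 3.09% of all genes were called, and 1.2% with a 4-fold change, which both members had. At an unadjusted p under 0.05, 12 members were higher and 10 lower. With RLE scaling, 22 of 53 members and 3744 of 14979 genes had an unadjusted p under 0.05 (edgeR). DESeq2 called 4 members higher and 5 lower, where it called 2643 of 14979 genes in either direction. Kcng1, a subunit that like Kcng3 forms no current alone, had 7.69 and 7.71 CPM in leukemia 92 and 0.203 and 0.215 CPM in leukemia 1, with 2.96 and 2.18 CPM in pro-B cells. The 3 groups did not overlap, and pro-B cells lay between the leukemias. The log2 change between the leukemias was 5.15 ± 0.37 (SE, adjusted p = 0.0229, edgeR). Cacna1d, an L-type calcium channel pore, had 7.97 and 7.38 CPM in leukemia 92 and 1.42 and 0.752 CPM in leukemia 1, with 15.8 and 20.7 CPM in pro-B cells. Both leukemias were below pro-B cells, leukemia 1 more so, and the log2 change between them was 2.81 ± 0.38 (SE, adjusted p = 0.0416, edgeR). The span of Cacna1d overlaps those of the coding genes Chdh and Dcp1a in RefSeq on GRCm38.p6, and whether their reads entered its count was not tested. Without either leukemia 92 library neither call held (adjusted p = 0.34 and 0.25 for Kcng1, 0.41 and 0.31 for Cacna1d), and without either pro-B library no gene of the table was called, with 15 members at an unadjusted p under 0.05 each time. More members, and more genes of the table, were called without 1 library of leukemia 1. Such a fit leaves 1 library in that group and no spread within it, so it cannot decide a call.

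Other members had values apart in the 2 leukemias without passing this test. Kcna5, a Kcna pore of heart and smooth muscle, had 1.48 and 2.31 CPM in leukemia 92 and 5.85 and 9.38 CPM in leukemia 1, with 0.798 and 1.43 CPM in pro-B cells (log2 change -2.02 ± 0.49 SE, adjusted p = 0.0956, edgeR). Cacna1b, the N-type calcium channel pore, had 8.71 and 13.5 CPM in leukemia 92 and 33.3 and 27.8 CPM in leukemia 1, with 7.22 and 4.44 CPM in pro-B cells (-1.47 ± 0.34 SE, adjusted p = 0.0898, edgeR). In both genes leukemia 1 was the higher group in each replicate. Kcnd1, a pore of transient potassium currents, had 3.53 and 4.15 CPM in leukemia 92 and 0.854 and 0.931 CPM in leukemia 1, with 0.570 and 0.238 CPM in pro-B cells (2.09 ± 0.48 SE, adjusted p = 0.0854, edgeR). Here leukemia 92 was the higher group. Scn3b, a sodium channel beta subunit, had 20 and 13 reads in leukemia 92 and 2 and 5 in leukemia 1, with 1 and 2 in pro-B cells. Its ratio of leukemia 92 to pro-B cells was 12.3, with a 95% exact interval of 3.87 to 62.8.

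**Figure D4:**
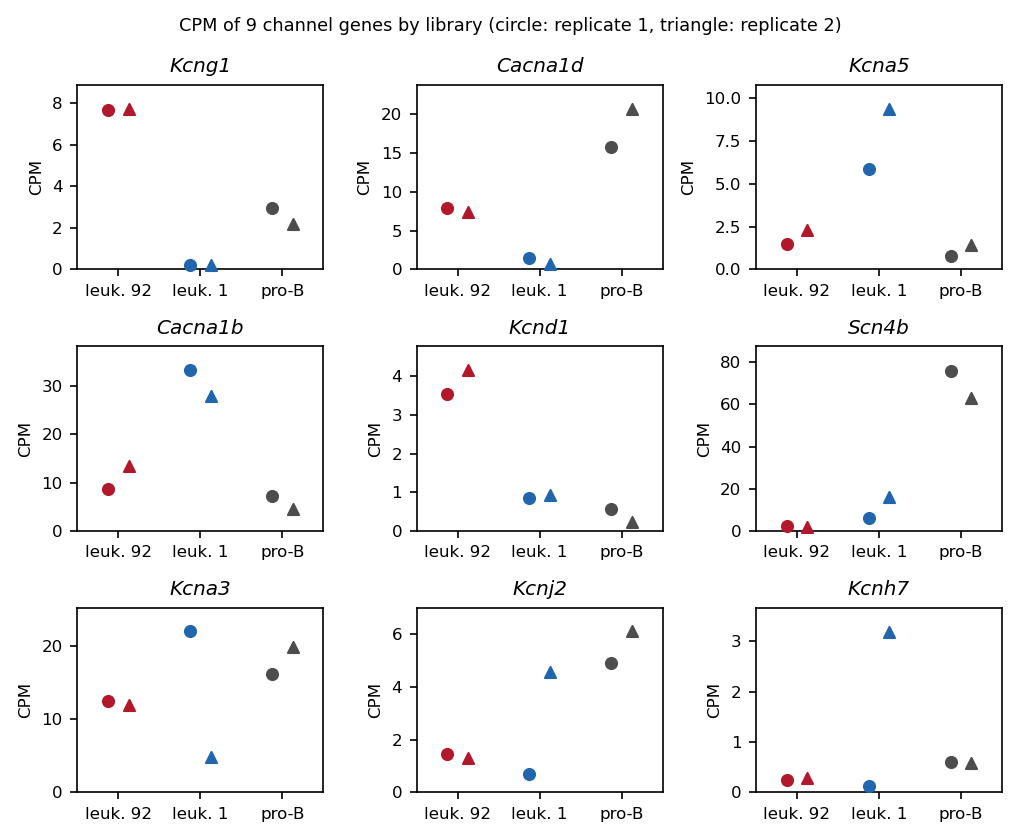
CPM of 9 channel genes in each library (red, leukemia 92; blue, leukemia 1; grey, pro-B cells; circle, replicate 1; triangle, replicate 2), chosen after their values were seen. Kcng1 stands at 7.69 and 7.71 CPM in leukemia 92 and 0.203 and 0.215 CPM in leukemia 1, while Kcna3, Kcnj2 and Kcnh7 show the replicates of leukemia 1 far apart.

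In several members the 2 replicates of leukemia 1 lay further apart than the leukemias did. Kcnh7, an ether-a-go-go-related pore, had 0.247 and 0.277 CPM in leukemia 92 and 0.122 and 3.19 CPM in leukemia 1, against 0.608 and 0.594 CPM in pro-B cells. The highest value was in replicate 2 of leukemia 1, the library with 15900 CPM of granulocyte and monocyte markers. The span of Kcnh7 overlaps that of the coding gene Gca in RefSeq on GRCm38.p6, and whether reads of Gca entered its count was not tested. In Kcnj2, Scn2b, Scn4b and Cacnb3 too, this library was the highest of the 4 leukemia libraries. Kcna3 and Kcnq5, a pore of slow potassium currents, were higher in replicate 1, with 18.1 and 9.60 CPM of Kcnq5 in leukemia 1, against 25.6 and 24.2 CPM in pro-B cells. The part of the granulocyte markers in these values was not tested. Over the tested members the SD of log2 differences between the replicates was 0.25 in leukemia 92, 0.93 in leukemia 1 and 0.28 in pro-B cells.

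Other genes of calcium, sodium and potassium transport were taken from 6 lists and read from the same test of leukemia against pro-B cells, where 20.2% of all genes were called. Of 14 tested genes of store-operated entry and calcium release, 2 were higher and 1 was lower. Ryr2, a calcium release channel of the endoplasmic reticulum, had 28.7 and 30.8 CPM in leukemia 92 and 56.7 and 29.9 CPM in leukemia 1, against 0.0380 and 0.119 CPM in pro-B cells. The groups were far apart (log2 change 8.84 ± 0.50 SE, adjusted p = 0.00829, edgeR). Orai1, the pore of store-operated calcium entry, had 21.4 and 19.9 CPM in leukemia 92 and 15.1 and 21.4 CPM in leukemia 1, against 6.16 and 7.05 CPM in pro-B cells (log2 change 1.62 ± 0.22 SE, adjusted p = 0.0215, edgeR). Its relative Orai3 was lower, at 26.4 and 23.9 CPM in leukemia 92 and 21.3 and 32.1 CPM in leukemia 1, against 49.4 and 53.5 CPM in pro-B cells (log2 change -0.92, adjusted p = 0.0222, and 0.073 without replicate 1 of leukemia 1, edgeR). The calcium sensors Stim1 and Stim2 overlapped between groups, with log2 changes of 0.04 and 0.06.

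Of 11 tested calcium pumps and exchangers, 3 were higher and 1 was lower. The exchanger Slc24a6 and the endoplasmic reticulum pump Atp2a2 were higher, with log2 changes of 1.54 and 0.70 (adjusted p = 0.0199 and 0.0370, edgeR), and the muscle pump Atp2a1 was lower (log2 change -3.14, adjusted p = 0.0276, edgeR). Slc24a6 did not pass without replicate 2 of leukemia 1 (adjusted p = 0.072), nor did Atp2a2 without either leukemia 1 library (0.059 and 0.058). Of 10 tested sodium-potassium pump genes, Atp1b3, a beta subunit, and Fxyd5, a regulator of the pump, were higher (log2 changes 1.06 and 1.28, adjusted p = 0.0247 and 0.0458, edgeR), and none was lower. Without replicate 2 of leukemia 1 the adjusted p was 0.097 for Atp1b3 and 0.19 for Fxyd5, and Fxyd5 was at 0.052 without replicate 2 of leukemia 92.

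Of 15 tested Trp and lysosomal channels, 3 were higher and 2 were lower. Trpm2, opened by ADP-ribose, had 50.4 and 40.0 CPM in leukemia 92 and 7.52 and 39.3 CPM in leukemia 1, against 0.532 and 1.03 CPM in pro-B cells (log2 change 5.54, adjusted p = 0.0162, edgeR). It was at 0.056 without replicate 2 of leukemia 1. Trpm4, a calcium-activated channel for monovalent ions, had a log2 change of 2.23 (adjusted p = 0.0405, or 0.072 without replicate 2 of leukemia 1, edgeR). The lysosomal channel Mcoln2 had 5.10 and 4.25 CPM in leukemia 92 and 4.51 and 4.05 CPM in leukemia 1, against 49.4 and 50.4 CPM in pro-B cells (log2 change -3.42, adjusted p = 0.00653, edgeR). Trpa1, a sensor of irritants, had 3 reads over the leukemia libraries and 490 over the pro-B libraries, a ratio of pro-B to leukemia of 312 with a 95% exact interval of 106 to 1520.

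Of 18 tested other cation channels, 1 was higher and 3 were lower. The ATP-gated channel P2rx5 had 13.9 and 12.8 CPM in leukemia 92 and 12.2 and 1.65 CPM in leukemia 1, against 0.190 and 0.238 CPM in pro-B cells (log2 change 5.59, adjusted p = 0.0168, and 0.080 without replicate 1 of leukemia 1, edgeR). Its relative P2rx3 had 0.781 and 0.738 CPM in leukemia 92 and 0.813 and 0.573 CPM in leukemia 1, against 22.2 and 22.2 CPM in pro-B cells (log2 change -4.88, adjusted p = 0.00737, edgeR). Unc79, a partner of the sodium leak channel, had 1 read over the leukemia libraries and 229 over the pro-B libraries, a ratio of pro-B to leukemia of 438 with a 95% exact interval of 77.8 to 17400. Of 9 tested partner proteins of the channels, 3 were higher and 1 was lower. Rrad and Gem, small GTP-binding proteins that bind calcium channel beta subunits and lower calcium currents, were higher, with log2 changes of 2.63 and 2.71 (adjusted p = 0.0132 and 0.0180, edgeR), Rrad at 0.061 without replicate 1 of leukemia 1. Gem was named after its value was seen. Stac2, which binds L-type pores, was higher (log2 change 3.36, adjusted p = 0.0148, edgeR), and Amigo1, a cell adhesion protein, was lower (log2 change -2.90, adjusted p = 0.0189, edgeR).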

How the data were processed

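Total RNA was sequenced in 2 libraries each of leukemia 92, leukemia 1 and pro-B cells. The authors deposited whole-number counts of reads per gene and library, in 1 table of 33924 genes and 5 entries that name no gene. Those entries held 34.0% to 39.6% of each library and were left out. The submitters' processing notes list STAR 2.4, HTSeq 0.6.1, DESeq2 and the build mm9 without a role for each. Neither annotation nor strandedness of the counting was given in the sources used here. Depth was 22153444 to 27444759 gene counts per library.

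From the counts, edgeR 4.0.16 in R 4.3.3 was run on all genes: low counts removed by filterByExpr (minimum count 10), TMM scaling, the robust quasi-likelihood test, and calls at a Benjamini-Hochberg adjusted p under 0.05. Leukemia against pro-B cells used counts summed per leukemia, and the other comparisons a fit of 6 libraries. CPM uses the TMM-scaled library size. SEs of log2 changes were derived from the F statistics. A fold against an empty group uses a floor of 3 counts over the group. With 1 to 3 counts a ratio has a 95% exact interval, and floors and intervals cover counting error only. The fits were run on simulated data with the same dispersion in every gene and group. Replicate spread differed between the groups here, so that run does not show how the fits perform on these data.

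The members and lists were chosen with earlier results of these data known. Members named in the text were a list of known lymphocyte and leukemia channels (its entry Kcnq1ot1 was not used here), all called members, and the most abundant of each family. Up to 2 genes per list and direction were named among other cation genes, by smallest p. Single-gene results of some members are not reported here. Alternatives were DESeq2 1.42.0, RLE scaling, no count filter, libraries as units, a replicate block and leaving out each library.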

Additional observations from a re-analysis of the deposited data

Results flagged for a closer look

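Among the 25 members tested for a library far from the rest of the 4 leukemia libraries, 4 had one. Chance gives about 1 in 20 groups where the 4 values are independent draws of 1 kind, and that rate does not apply directly here, since the libraries are 2 from each of 2 leukemias and replicates differed by an SD of log2 differences of 0.25 in leukemia 92 and 1.04 in leukemia 1. Cacnb1 stood at 3.98 CPM in replicate 1 of leukemia 1, with the nearest other leukemia library at 8.77 CPM. Cacnb3 stood at 1.5 CPM in replicate 2 of leukemia 1, with the nearest at 0.244 CPM. Kcnk5 stood at 1.83 CPM in replicate 1 of leukemia 1, with the nearest at 0.358 CPM. Kcnq5 stood at 18.1 CPM in replicate 1 of leukemia 1, with the nearest at 9.60 CPM. All 4 values belong to leukemia 1, the group with the wider replicate spread. The changes against pro-B cells differed between the leukemias for Kcng1, by 5.15 on the log2 scale in leukemia 92 against leukemia 1 (adjusted p = 0.0229, edgeR), and for Cacna1d, by 2.81 (adjusted p = 0.0416, edgeR).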

How the results depend on the processing

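RLE scaling and omitting the count filter left all counts of called members within 1.5 times of those reported. DESeq2 called 16 members lower and 4769 genes in leukemia against pro-B cells, and 4 members higher, 5 lower and 2643 genes in leukemia 92 against leukemia 1. With libraries as units, leukemia against pro-B cells gave 12 members higher, 17 lower and 4712 genes, and Kcng1 turned to -0.96 (adjusted p = 0.0464, edgeR). Deviations of same-numbered libraries correlated at -0.156, -0.0328 and 0.0633. These low values cannot show that the libraries are unpaired, since the wide replicate spread of leukemia 1 could hide a shared effect. With the replicate block, leukemia 1 against pro-B cells gave 4 members higher, 5 lower and 1439 genes, and leukemia 92 against leukemia 1 gave 0 members higher and 0 genes (18 members and 3042 genes at an unadjusted p under 0.05, edgeR). The block with the numbers of leukemia 1 crossed, added after seeing the data, gave 0 and 0 (17 and 2995 unadjusted).

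Leaving out 1 library gave 0 to 6 members higher, 0 to 10 lower and 0 to 3244 genes in leukemia against pro-B cells. The ranges were 0 to 14, 0 to 24 and 472 to 10746 in leukemia 92 against pro-B cells, 0 to 16, 0 to 28 and 0 to 9641 in leukemia 1 against pro-B cells, and 0 to 18, 0 to 16 and 0 to 8133 in leukemia 92 against leukemia 1. Each lower end came without a pro-B library or, between the leukemias, also without a leukemia 92 library, and the highest gene counts of the 3 comparisons in the fit of 6 libraries came without a leukemia 1 library. The cause was not tested. Over the libraries left out, the log2 change of Kcnab2 in leukemia 1 against pro-B cells ran between -0.49 (without replicate 2 of leukemia 1) and 0.41. In leukemia 92 against leukemia 1 it ran between -1.21 and 5.81 for Cacna1i (5.81 without replicate 2 of leukemia 1), between -0.84 and 1.30 for Kcna3 (1.30 without replicate 1) and between -0.25 and 0.61 for Kcnab2 (-0.25 without replicate 1). Over all named members and alternatives, 826 values kept direction and call, 187 lost and 91 gained a call in the same direction, 5 turned sign with a call in either fit, and 32 without a call in either fit turned sign or went to 0.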
